A study of Homo sapiens with 8 samples.

Results

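Genes of cholesterol synthesis and of sterol regulation, 29 in all, were followed across 8 arrays. They were chosen by gene name: the enzymes that build cholesterol from acetyl-CoA, the regulators of that pathway, a sterol carrier, genes of cholesterol export and 2 enzymes of fatty acid synthesis. Of the 29, 27 had at least 1 probe set that names them alone, 65 probe sets in total, and all 27 were among the 13161 genes tested. CYP51A1 and FDFT1 were not analysed here, because no probe set used here names either gene alone.

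Cells make cholesterol through the mevalonate pathway, which yields isoprenoids and then squalene, and squalene is cyclised and trimmed to cholesterol. The transcription factors encoded by SREBF1 and SREBF2 drive the genes of this pathway when sterols run low: SCAP escorts them out of the endoplasmic reticulum, and the INSIG proteins hold SCAP back when sterols are plentiful. In sterol-rich cells the LXR nuclear receptors switch on export genes such as ABCA1 and ABCG1 and the ubiquitin ligase MYLIP, which removes lipoprotein receptors from the cell surface.

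The arrays, Affymetrix HG-U133 Plus 2.0, read transcripts with sets of short probes. The cultures were of SUP-B8 and NALM-6, both described in the labels as acute lymphoblastic leukaemia lines, and were exposed for 72 hours to 0.5 uM GSK126, an inhibitor of the histone methyltransferase EZH2, or to the vehicle DMSO. The groups, with 2 biological replicates each per the labels, were SUP-B8 with GSK126, SUP-B8 with DMSO, NALM-6 with GSK126 and NALM-6 with DMSO. By its title the study concerns a substitution in EZH2, and the labels give no EZH2 genotype for either line. Each line is a single line, so a difference between the lines cannot be told apart from any other difference between these cultures.

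Array medians over all probe sets lay between 7.18 and 7.24 on the log2 scale, and the correlation of replicate arrays over probe sets was 0.9977 to 0.9982. The EZH2 transcript read 11.13 to 11.28 on the 8 arrays, and the 3′ minus 5′ differences of the ACTB and GAPDH control probe sets were between -0.143 and 0.022. All 5 B lineage markers on the array exceeded the array medians in every group, and none of 6 myeloid markers did. T cell markers did so for 4 of 6 and erythroid markers for 2 of 2 in every group, and stromal markers for 3 of 6 in SUP-B8 and 2 of 6 in NALM-6. Mature B cell markers did so for 2 of 5 in SUP-B8 and 5 of 5 in NALM-6. All 7 early B cell markers exceeded the medians in both groups labelled SUP-B8, against 1 of 7 in both groups labelled NALM-6. DNTT, the terminal transferase that NALM-6 is commonly described as expressing, averaged 13.54 (GSK126) and 13.67 (DMSO) in the arrays labelled SUP-B8, against 6.65 and 6.86 in those labelled NALM-6, where it was below the array medians. The lines are therefore named by their labels only.

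In the arrays labelled NALM-6, GSK126 moved 16 of the 27 members at an adjusted p under 0.05, 5 higher and 11 lower. Over all genes tested, 39.3% were called in this contrast, 20.8% higher and 18.5% lower, against 59.3% of the members, 18.5% higher and 40.7% lower. The members that fell were enzymes of the mevalonate and sterol steps, SREBF2, INSIG1, ABCA1 and MYLIP. Those that rose were INSIG2, STARD4, ABCG1, PMVK and SREBF1. The median difference over the members was -0.05 on the log2 scale, against 0.02 over all genes. The arrays measure RNA from whole cultures, in which a changed share of cells and a changed amount of RNA per cell cannot be told apart.

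**Figure D1:**
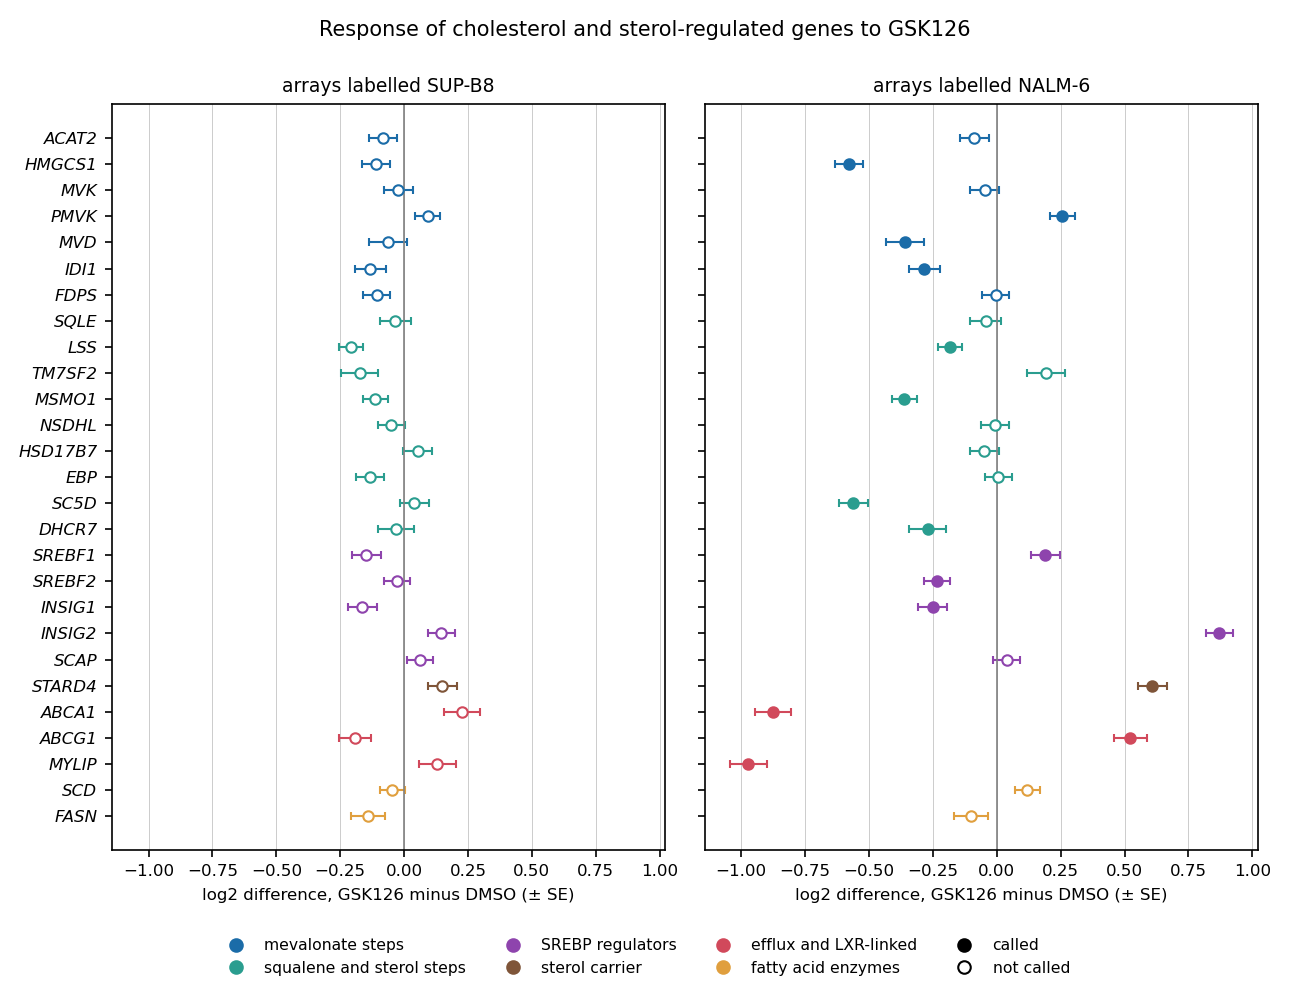
Log2 difference, GSK126 minus DMSO, of each member in the arrays labelled SUP-B8 (left) and NALM-6 (right), with bars of 1 SE from the shared fit and filled points for genes called at an adjusted p under 0.05. The 16 filled points all stand in the NALM-6 panel and run from -0.97 (MYLIP) to 0.87 (INSIG2), and the SUP-B8 values stay between -0.21 and 0.23.

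Among the enzymes of the mevalonate and sterol steps, 16 were tested, and in the arrays labelled NALM-6 the test called 7 lower and 1 higher. That is 43.8% lower and 6.25% higher, against 18.5% lower and 20.8% higher over all genes tested. HMGCS1, the synthase that makes HMG-CoA at the head of the pathway, read 9.01 and 8.90 on the NALM-6 arrays with GSK126, against 9.51 and 9.56 on those with DMSO. Both treated arrays were below both vehicle arrays. The difference was -0.58 ± 0.06 on the log2 scale (SE, n = 2 each, limma, adjusted p = 0.000107), a ratio of 0.670. SC5D, the desaturase that acts near the end of the pathway, read 8.66 and 8.68 with GSK126, against 9.17 and 9.30 with DMSO. Its groups also stood apart, by -0.56 ± 0.06 (adjusted p = 0.000147). A mean over both SC5D probe sets, one of them below the median on every array, gave -0.34.

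MSMO1, the oxidase that removes methyl groups from the sterol ring, read 9.44 and 9.40 on the NALM-6 arrays with GSK126, against 9.79 and 9.78 with DMSO. The treated pair again lay below the vehicle pair, by -0.36 ± 0.05 (SE, n = 2 each, adjusted p = 0.000658). MVD, which decarboxylates mevalonate diphosphate, read 8.38 on both arrays with GSK126 and 8.74 on both with DMSO (-0.36 ± 0.07, adjusted p = 0.00561). IDI1, the isomerase of the isopentenyl unit, read 11.87 and 11.81 with GSK126, against 12.04 and 12.20 with DMSO. Its groups did not overlap (-0.28 ± 0.06, adjusted p = 0.00646), but the value comes from a probe set that may also bind related transcripts, and 2 of its 4 tested probe sets were called lower, with a mean over all 4 of -0.15.

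LSS, the cyclase that forms lanosterol, and DHCR7, the reductase of the last step, fell by less. LSS changed by -0.18 ± 0.05 (adjusted p = 0.0152) and DHCR7 by -0.27 ± 0.07 (adjusted p = 0.0173). Either call depended on single arrays. Without NALM-6 DMSO replicate 2 the adjusted p was 0.0657 for LSS and 0.0968 for DHCR7, and without NALM-6 GSK126 replicate 1 it was 0.0677 for LSS and 0.119 for DHCR7. Without NALM-6 GSK126 replicate 2 it was 0.0867 for LSS. PMVK, the kinase between the MVK and MVD steps, was the enzyme that rose: it read 11.25 and 11.22 with GSK126, against 10.96 and 11.00 with DMSO (0.26 ± 0.05, adjusted p = 0.00351).

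The other 8 enzymes tested were not called. Their differences in the arrays labelled NALM-6 ran from -0.09 for ACAT2, the thiolase that opens the pathway, to 0.19 for TM7SF2, a sterol reductase (adjusted p = 0.0704). FDPS, SQLE, NSDHL, HSD17B7 and EBP lay between -0.05 and 0.01. MVK, the mevalonate kinase, stood at -0.05 for the probe set that represents it, while another of its 4 tested probe sets was called lower, at -0.36 ± 0.06 (adjusted p = 0.00140 over probe sets). Counting all 16 enzymes, 13 differences were below 0 and the median was -0.07, against a median of 0.02 over all genes. The share of all genes below 0 was not computed.

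**Figure D2:**
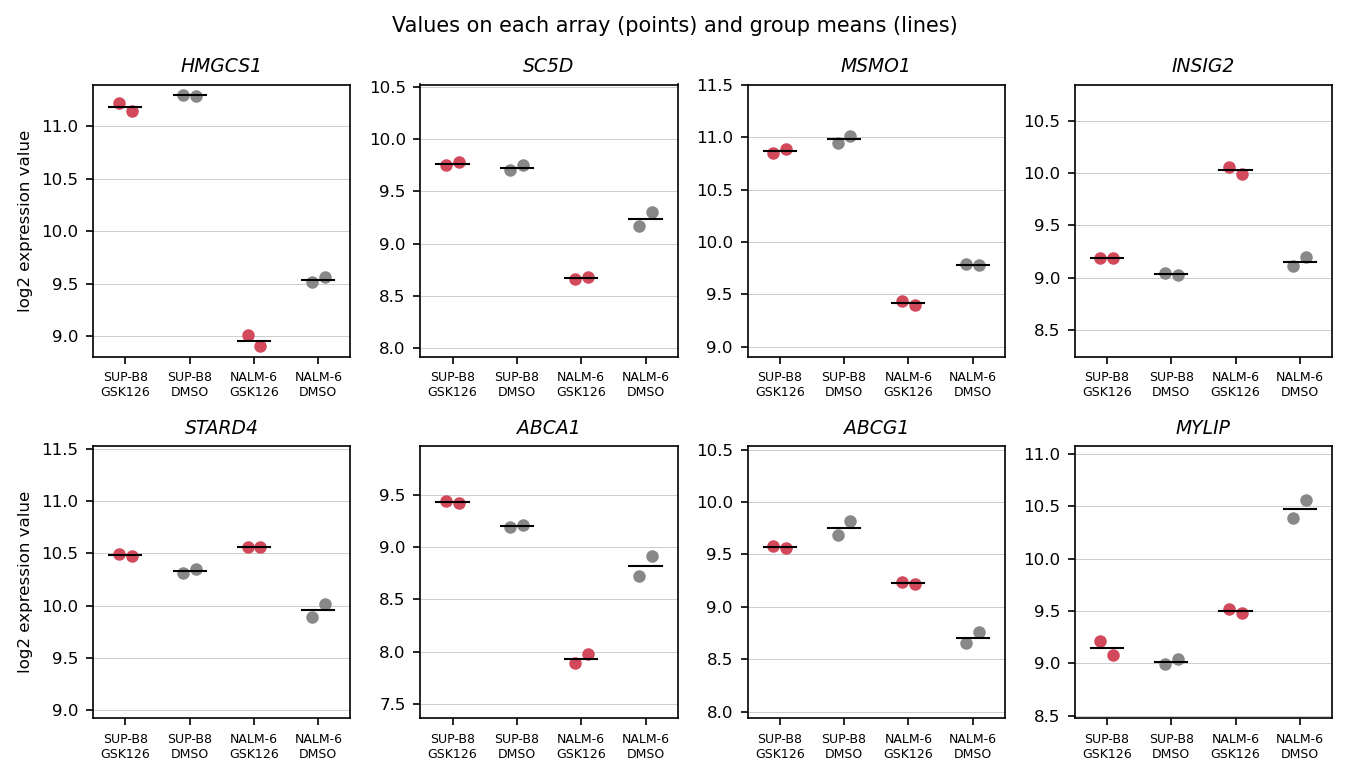
Log2 values on each array (points) and group means (lines) for HMGCS1, SC5D, MSMO1, INSIG2, STARD4, ABCA1, ABCG1 and MYLIP, in the SUP-B8 and NALM-6 arrays with GSK126 or DMSO. Each panel has its own centre and the same span, and in the NALM-6 arrays each gene's GSK126 pair stands apart from its DMSO pair.

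Of the regulators, INSIG2, which retains SCAP in the endoplasmic reticulum, rose the most. It read 10.06 and 9.99 on the NALM-6 arrays with GSK126, against 9.11 and 9.20 with DMSO. The pairs were separated by far more than their own spread, with a difference of 0.87 ± 0.05 (SE, n = 2 each, adjusted p = 1.07e-05), a ratio of 1.83. Its relative INSIG1, itself a sterol-regulated gene, moved the other way, at -0.25 ± 0.06 (adjusted p = 0.00897), and its 3 probe sets were all called lower, between -0.29 and -0.22. INSIG1 read 12.26 and 12.22 with GSK126, against 12.50 and 12.48 with DMSO.

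SREBF2, the main activator of cholesterol synthesis genes, read 10.42 and 10.39 on the NALM-6 arrays with GSK126, against 10.63 and 10.66 with DMSO. The treated pair lay lower, by -0.24 ± 0.05 (adjusted p = 0.00669), and 2 of its 3 probe sets were called. SREBF1, whose products act more on fatty acid genes, was higher by 0.19 ± 0.06 (adjusted p = 0.0296). Without NALM-6 GSK126 replicate 2 the adjusted p was 0.206 for SREBF1, 0.0515 for SREBF2 and 0.0579 for INSIG1. Without DMSO replicate 1 or DMSO replicate 2 it was 0.0810 or 0.0976 for SREBF1. SCAP, the escort protein, stood at 0.04 and was not called.

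STARD4, a carrier that moves sterol between membranes, read 10.56 on both NALM-6 arrays with GSK126, against 9.89 and 10.02 with DMSO. It was higher by 0.61 ± 0.06 (SE, n = 2 each, adjusted p = 8.46e-05), a ratio of 1.52. INSIG2 and STARD4 each have a single probe set here, so neither could be compared with another probe set of its gene.

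RefSeq promoter windows are shown for a few of the called members, picked to include some that fell and some that rose in the NALM-6 arrays. Those of other called members, MYLIP, ABCA1, PMVK and SREBF1 among them, are not shown. Windows of 300 bases (GRCh38.p14, 250 bases before to 50 after an annotated start) were found for 24 of the 29 members. They were searched on both strands for CCAAT, the box bound by NF-Y, a partner of the SREBF factors, and for TCACNCCAC, the core of the sterol regulatory element. HMGCS1, MSMO1 and SREBF2 fell, and STARD4 and INSIG2 rose. Sequences run 5′ to 3′ on the gene's strand. Capitals mark CCAAT or its reverse complement ATTGG, and in SREBF2 also the sterol regulatory element core. The positions are chr5:43313363-43313662 (HMGCS1, minus strand), chr4:165327419-165327718 (MSMO1, plus strand), chr22:41832855-41833154 (SREBF2, plus strand), chr5:111512486-111512785 (STARD4, minus strand) and chr2:118088300-118088599 (INSIG2, plus strand).
HMGCS1: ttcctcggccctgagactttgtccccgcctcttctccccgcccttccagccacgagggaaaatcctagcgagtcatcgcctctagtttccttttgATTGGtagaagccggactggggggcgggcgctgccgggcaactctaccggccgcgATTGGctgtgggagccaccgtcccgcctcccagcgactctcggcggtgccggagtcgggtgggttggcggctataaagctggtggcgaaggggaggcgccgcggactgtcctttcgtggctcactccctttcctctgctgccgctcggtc
MSMO1: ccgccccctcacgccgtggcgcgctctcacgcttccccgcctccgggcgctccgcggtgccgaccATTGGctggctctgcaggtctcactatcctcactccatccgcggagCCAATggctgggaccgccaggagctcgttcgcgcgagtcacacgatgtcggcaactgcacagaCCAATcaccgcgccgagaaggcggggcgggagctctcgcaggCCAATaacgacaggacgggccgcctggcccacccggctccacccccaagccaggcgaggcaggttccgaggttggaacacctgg
SREBF2: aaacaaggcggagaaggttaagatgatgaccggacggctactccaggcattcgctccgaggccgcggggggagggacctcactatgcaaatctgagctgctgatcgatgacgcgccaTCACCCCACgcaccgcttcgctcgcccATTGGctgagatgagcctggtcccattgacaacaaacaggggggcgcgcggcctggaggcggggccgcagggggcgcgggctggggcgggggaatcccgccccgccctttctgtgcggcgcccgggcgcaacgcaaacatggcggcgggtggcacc
STARD4: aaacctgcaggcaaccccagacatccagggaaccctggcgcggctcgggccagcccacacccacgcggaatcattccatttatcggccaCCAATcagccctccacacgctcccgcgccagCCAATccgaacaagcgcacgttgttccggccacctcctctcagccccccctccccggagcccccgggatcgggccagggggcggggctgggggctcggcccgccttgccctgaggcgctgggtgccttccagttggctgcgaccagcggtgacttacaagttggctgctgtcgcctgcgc
INSIG2: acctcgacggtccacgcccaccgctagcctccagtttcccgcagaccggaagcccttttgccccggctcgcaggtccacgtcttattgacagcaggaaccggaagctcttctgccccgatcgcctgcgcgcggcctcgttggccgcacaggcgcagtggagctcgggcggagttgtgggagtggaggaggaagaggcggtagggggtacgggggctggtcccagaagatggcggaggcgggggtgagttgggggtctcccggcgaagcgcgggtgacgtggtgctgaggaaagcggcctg

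The HMGCS1 window shown holds CCAAT in reverse at 155 and 100 bases upstream of the start, and the MSMO1 window holds it 4 times. Another HMGCS1 window, not shown, has neither motif. The SREBF2 window has the core TCACCCCAC 133 bases upstream and a reversed CCAAT 106 bases upstream, and it was the only member window with a match to the core. STARD4 has CCAAT at 161 and 130 bases upstream, and the INSIG2 window shown has neither motif. Of the 30 member windows, 66.7% held CCAAT, against 34.6% of 35116 promoters of the same length, and 3.33% held the core, against 1.13%.

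By response in the arrays labelled NALM-6, CCAAT was found for 10 of the 11 members that fell, all but ABCA1. A member counted here if any of its windows held CCAAT. The share of all promoters given above is per window, and a matching share per gene was not computed. It was found for 1 of the 4 that rose and had a window, which was STARD4 and not INSIG2, PMVK or SREBF1. It was found for 7 of the 8 that were tested, not called and had a window, all but SCAP. A match describes the letters of the window and was not tested as a binding site.

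All 3 export and LXR-linked genes were called in the arrays labelled NALM-6, and not in the same direction. ABCA1, which loads cholesterol onto apolipoprotein, read 7.89 and 7.98 with GSK126, against 8.72 and 8.91 with DMSO. The treated arrays were well below the vehicle arrays, by -0.88 ± 0.07 (SE, n = 2 each, adjusted p = 4.14e-05), a ratio of 0.544. A second ABCA1 probe set was also called lower, with its GSK126 arrays below the array medians. ABCG1, which passes cholesterol on to high-density lipoprotein, read 9.24 and 9.22 with GSK126, against 8.65 and 8.76 with DMSO. It was higher by 0.52 ± 0.06 (adjusted p = 0.000338), and 2 of its 3 probe sets were called higher. The other ABCG1 probe set lay below the array medians on every NALM-6 array.

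MYLIP, also known as IDOL, had the largest fall among the members. It read 9.52 and 9.48 on the NALM-6 arrays with GSK126, against 10.39 and 10.56 with DMSO. The difference was -0.97 ± 0.07 (SE, n = 2 each, adjusted p = 2.75e-05), a ratio of 0.509. Of its 6 probe sets 5 were called lower, and the 6 ran from -1.40 to -0.13. Averaging all probe sets of a gene, those too dim to be tested included, gave -0.51 for ABCA1 and 0.29 for ABCG1, both still called. The fatty acid enzymes SCD, a desaturase, and FASN, the synthase, were not called, at 0.12 and -0.10.

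**Figure D3:**
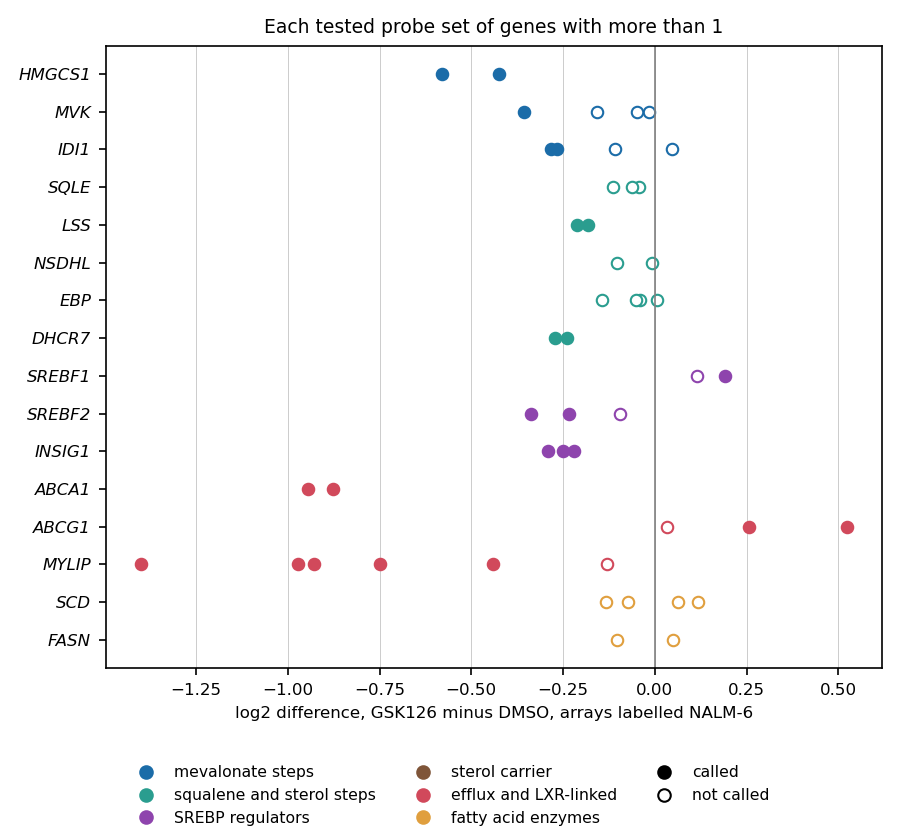
Log2 difference, GSK126 minus DMSO, in the arrays labelled NALM-6 for every tested probe set of the 16 members with more than 1, with filled points for probe sets called over all probe sets. The probe sets of HMGCS1, LSS, DHCR7, INSIG1 and ABCA1 were all called lower, while those of MYLIP spread from -1.40 to -0.13.

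Over the 59 tested probe sets of the members, 24 were called lower and 6 higher in the arrays labelled NALM-6, against 21.7% called lower and 19.4% higher over all probe sets (41.1% in either direction). Probe sets of 1 gene share a transcript and are not replicates. The GSK126 and DMSO pairs did not overlap for 21 of the 27 genes, 7 higher and 14 lower, against 68.8% of all genes.

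In the arrays labelled SUP-B8 none of the 27 members was called by limma, where 2.25% of all genes were called (1.91% higher and 0.334% lower). At an unadjusted p under 0.05 there were 9 of 27, 6 of them lower, against 16.7% of all genes. A trended robust variance prior called 2, LSS and INSIG1, against 5.9% of all genes. Differences ran from -0.21 for LSS to 0.23 for ABCA1, with a median of -0.05, against -0.02 over all genes. The pairs did not overlap for 20 of the 27, against 49.5% of all genes. None of the 59 probe sets was called either, against 1.55% of all probe sets (1.35% higher and 0.201% lower), though 17 reached p under 0.05 before adjustment, against 16.1% of all probe sets. For the 16 enzymes, 13 differences were below 0 and the median was -0.07, against that median of -0.02 over all genes.

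LSS read 10.86 and 10.84 on the SUP-B8 arrays with GSK126, against 11.08 and 11.04 with DMSO. These pairs did not overlap, and the difference of -0.21 ± 0.05 had an adjusted p of 0.0719, or 0.0119 with the trended robust prior. INSIG1 read 11.62 and 11.67 with GSK126, against 11.75 and 11.87 with DMSO, again without overlap. Its difference was -0.16 ± 0.06 (adjusted p = 0.215, or 0.0283 with that prior). ABCA1 read 9.44 and 9.42 with GSK126, against 9.19 and 9.21 with DMSO (0.23 ± 0.07, adjusted p = 0.166).

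Whether the lines differed in their response was tested as the SUP-B8 response minus the NALM-6 response, and 10 of the 27 members were called, 5 higher and 5 lower, against 25.4% of all genes (10.9% higher and 14.5% lower). Of the 59 probe sets, 17 were called, 11 higher and 6 lower, against 26.4% of all probe sets (13.1% higher and 13.4% lower). MYLIP had a difference of responses of 1.10 ± 0.10 (SE, adjusted p = 0.000222): its SUP-B8 arrays read 9.21 and 9.08 with GSK126, against 8.99 and 9.04 with DMSO. In SUP-B8 its treated arrays were thus not below the vehicle arrays. ABCA1 had a difference of responses of 1.10 ± 0.10 (adjusted p = 0.000192), and 0.58 as a mean of its probe sets. That mean takes in probe sets too dim to be tested, and the tested ones were all called higher.

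SC5D read 9.75 and 9.78 on the SUP-B8 arrays with GSK126, against 9.70 and 9.75 with DMSO, and its responses differed by 0.60 ± 0.08 (SE, adjusted p = 0.00137). With the mean of the SC5D probe sets the difference was 0.26. HMGCS1 read 11.22 and 11.15 with GSK126, against 11.30 and 11.29 with DMSO (difference of responses 0.47 ± 0.08, adjusted p = 0.00382). For HMGCS1 the SUP-B8 pairs did not overlap either, and the response there, -0.11, had the same sign as in NALM-6. MSMO1 read 10.85 and 10.89 with GSK126, against 10.95 and 11.01 with DMSO. Its difference of responses, 0.25 ± 0.07 (adjusted p = 0.0330), was lost in 7 of the 8 omissions of an array, with an adjusted p of up to 0.116.

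Responses lower in SUP-B8 than in NALM-6 were those of INSIG2, ABCG1, STARD4, TM7SF2 and SREBF1. INSIG2 read 9.19 on both SUP-B8 arrays with GSK126, against 9.05 and 9.03 with DMSO, a difference of responses of -0.73 ± 0.07 (SE, adjusted p = 0.000380). Its SUP-B8 value of 0.14 had the same sign as its NALM-6 value. ABCG1 read 9.58 and 9.56 with GSK126, against 9.69 and 9.82 with DMSO. The difference of responses was -0.72 ± 0.09 (adjusted p = 0.000919), or -0.36 as a mean of its probe sets. That mean takes in a dim untested probe set and another below the medians on the NALM-6 arrays.

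STARD4 read 10.49 and 10.47 on the SUP-B8 arrays with GSK126, against 10.31 and 10.35 with DMSO. Its difference of responses was -0.46 ± 0.08 (adjusted p = 0.00428). The values for SREBF1 and TM7SF2 were -0.34 ± 0.08 (adjusted p = 0.0179) and -0.37 ± 0.10 (adjusted p = 0.0349). The TM7SF2 call was lost in 6 of the 8 omissions of an array, with an adjusted p of up to 0.112. The SREBF1 call was lost in 3, with an adjusted p of 0.0521 without SUP-B8 DMSO replicate 2, 0.0680 without SUP-B8 GSK126 replicate 1 and 0.0674 without NALM-6 GSK126 replicate 2.

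Under DMSO alone, most members read higher in SUP-B8 than in NALM-6. The test called 21 of 27, 16 higher and 5 lower, against 68.3% of all genes (37.8% higher and 30.6% lower). The median difference, SUP-B8 minus NALM-6, was 0.39 over the members and 0.04 over all genes. DMSO pairs of the lines did not overlap for 24 of 27 members, against 81.1% of all genes. Of the 59 probe sets, 47 were called, 31 higher and 16 lower, against 70.1% of all probe sets (37.3% higher and 32.8% lower). Of the 16 enzymes of the mevalonate and sterol steps, 10 were higher and 3 lower, with a median of 0.50. These contrasts use the same DMSO arrays as the responses above.

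**Figure D4:**
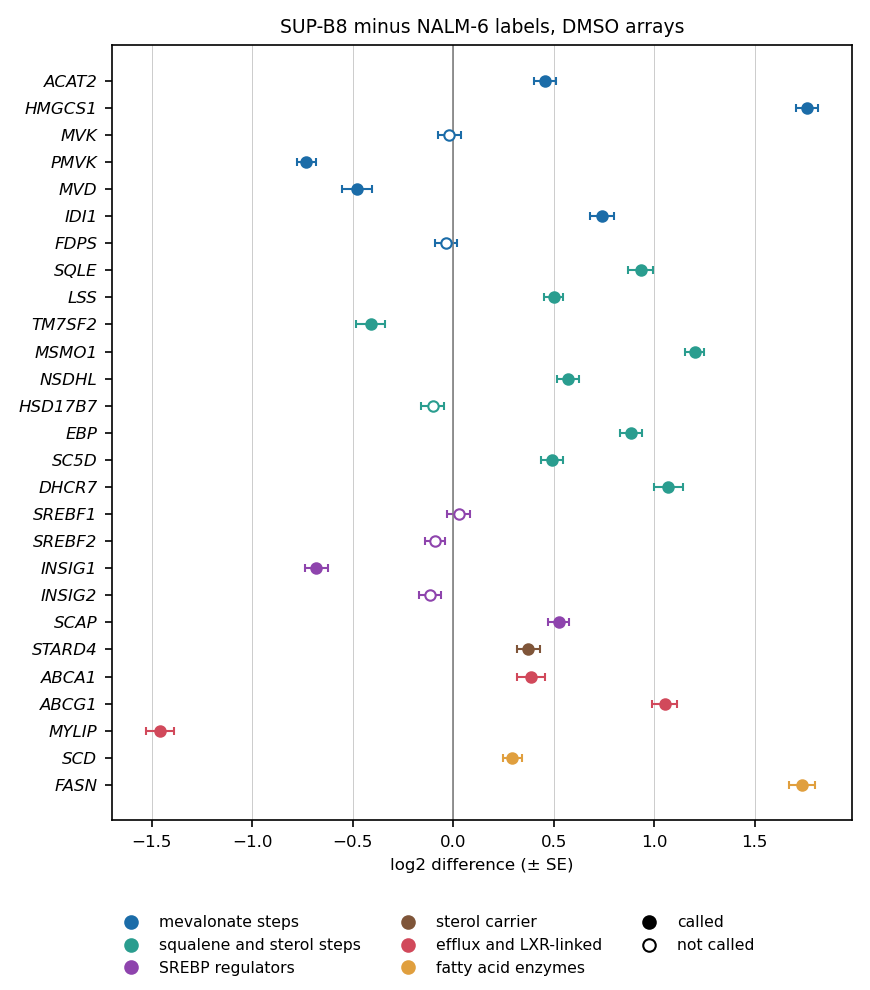
Log2 difference, SUP-B8 minus NALM-6, of each member on the DMSO arrays, with bars of 1 SE from the shared fit and filled points for genes called at an adjusted p under 0.05. HMGCS1 stands highest at 1.76 and MYLIP lowest at -1.46.

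HMGCS1 led the list, at 11.30 and 11.29 on the SUP-B8 DMSO arrays, against 9.51 and 9.56 on the NALM-6 DMSO arrays. The difference of 1.76 ± 0.06 (SE, n = 2 each, adjusted p = 1.88e-08) is a ratio of 3.39. FASN read 10.42 and 10.40 in SUP-B8, against 8.70 and 8.65 in NALM-6 (1.74 ± 0.07, adjusted p = 5.84e-08). This value rests on 1 of the 2 FASN probe sets, since the other stood at 0.07 and their mean was 0.91. MSMO1 read 10.95 and 11.01 in SUP-B8, against 9.79 and 9.78 in NALM-6 (1.20 ± 0.05, adjusted p = 9.09e-08).

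Several enzymes of the sterol steps were also far apart between the lines. DHCR7 read 10.69 and 10.57 in SUP-B8, against 9.51 and 9.60 in NALM-6 (1.07 ± 0.07, SE, adjusted p = 1.86e-06). SQLE, the epoxidase that acts on squalene, read 11.12 and 11.28 in SUP-B8, against 10.28 and 10.26 in NALM-6 (0.93 ± 0.06, adjusted p = 1.63e-06), and its 3 probe sets were all called higher. EBP, the sterol isomerase, read 12.30 and 12.38 in SUP-B8, against 11.42 and 11.50 in NALM-6 (0.88 ± 0.05, adjusted p = 1.08e-06). The EBP probe sets disagreed, 3 of 4 being called higher and 1 lower, with a mean of 0.34.

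IDI1 read 12.85 and 12.87 in SUP-B8, against 12.04 and 12.20 in NALM-6 (0.74 ± 0.06, SE, adjusted p = 6.62e-06). Of its 4 probe sets 2 were called higher and 1 lower, with a mean of 0.24. Smaller positive differences, between 0.29 and 0.57, were called for NSDHL, SCAP, LSS, SC5D, ACAT2, ABCA1, STARD4 and SCD. Averaging probe sets moved LSS to 0.28, ABCA1 to 0.18 and SCD to 0.66. The LSS and ABCA1 means take in probe sets too dim to be tested. Their tested probe sets were all called higher, at 0.50 and 0.57 for LSS and 0.39 and 0.60 for ABCA1. ABCG1 read 9.69 and 9.82 in SUP-B8, against 8.65 and 8.76 in NALM-6 (1.05 ± 0.06, adjusted p = 8.76e-07). Its 3 probe sets were all called higher, 1 of them with its NALM-6 arrays below the array medians.

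The 5 members lower in SUP-B8 were MYLIP, PMVK, INSIG1, MVD and TM7SF2. MYLIP read 8.99 and 9.04 in SUP-B8, against 10.39 and 10.56 in NALM-6, a difference of -1.46 ± 0.07 (SE, n = 2 each, adjusted p = 2.66e-07), and its 6 probe sets were all called lower. PMVK read 10.26 and 10.24 in SUP-B8, against 10.96 and 11.00 in NALM-6 (-0.73 ± 0.05, adjusted p = 1.66e-06). INSIG1 stood at -0.68 ± 0.06 (adjusted p = 7.75e-06), with its 3 probe sets all called lower. MVD and TM7SF2 stood at -0.48 ± 0.07 and -0.41 ± 0.07 (adjusted p = 0.000430 and 0.000998). SREBF1, SREBF2 and INSIG2, at 0.03, -0.09 and -0.12, were not called, nor were MVK, FDPS and HSD17B7.

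A further list held 47 genes of SREBP processing, sterol handling, LXR, fatty acid synthesis and the isoprenoid branch, of which 38 were tested. In the arrays labelled NALM-6, 6 rose and 6 fell with GSK126, 31.6% in all against 39.3% of all genes, with a median of 0.00. ELOVL6, an elongase of fatty acids, averaged 8.18 ± 0.02 with GSK126 and 7.41 ± 0.14 with DMSO (SD, n = 2 each), the latter near the array medians. The difference was 0.78 ± 0.07 (SE, adjusted p = 6.63e-05), or 0.44 as a mean of its probe sets. ACSL1, which activates fatty acids, averaged 11.01 ± 0.02 with GSK126 and 10.35 ± 0.03 with DMSO (0.66 ± 0.05, adjusted p = 2.90e-05). FNTB, a farnesyltransferase subunit, was higher by at least 0.66, since its DMSO arrays lay below the array medians (adjusted p = 0.000122). ERLIN1, which takes part in sterol-dependent degradation in the endoplasmic reticulum, stood at -0.45 ± 0.04 (adjusted p = 0.000124).

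In the arrays labelled SUP-B8, 2 of the 38 were called and both rose, 5.26% against 2.25% of all genes, whose calls were also mostly higher (1.91% higher and 0.334% lower). ACSL1 averaged 8.58 ± 0.02 with GSK126 and 8.22 ± 0.04 with DMSO (SD, n = 2 each), a difference of 0.36 ± 0.05 (SE, adjusted p = 0.0136). ELOVL6 averaged 11.65 ± 0.01 with GSK126 and 11.27 ± 0.03 with DMSO (0.38 ± 0.07, adjusted p = 0.0343). Either call was lost without single arrays: for ACSL1 without SUP-B8 DMSO replicate 1, GSK126 replicate 1 or GSK126 replicate 2 (adjusted p = 0.0546, 0.101 and 0.0751). For ELOVL6 the omission of any SUP-B8 array or any NALM-6 GSK126 array gave an adjusted p between 0.0586 and 0.184, and testing without the filter on dim probe sets gave 0.0658.

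Under DMSO, 34 of the 38 differed between the lines, 20 higher and 14 lower in SUP-B8, which is 89.5% against 68.3% of all genes (37.8% higher and 30.6% lower). VLDLR, a lipoprotein receptor, was higher by at least 4.09, as its NALM-6 arrays lay below the array medians. ELOVL6 was higher by 3.86 ± 0.07 (SE, adjusted p = 8.98e-10), whereas ACSL1 was lower, at -2.14 ± 0.05 (adjusted p = 3.22e-09). The NALM-6 DMSO mean of ELOVL6, 7.41, lay near the medians of those arrays, 7.21 and 7.18. SMPDL3A, an LXR target in macrophages, was lower in SUP-B8 by at least 0.62, as its SUP-B8 arrays lay below the array medians. Its difference of responses therefore includes a SUP-B8 response between groups not shown to exceed background. That of FNTB includes a NALM-6 DMSO group below the array medians. Of the 38, 11 had a difference of responses that was called, 5 higher and 6 lower in SUP-B8, 28.9% against 25.4% of all genes. Of these, ERLIN1 and FNTB kept the call in all 16 alternatives, while TMEM97 lost it in 11, OSBP in 10, SMPDL3A in 8 and NR1H3 in 7.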

How the data were processed

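RNA from 8 cultures was measured on Affymetrix HG-U133 Plus 2.0 arrays, 2 per group. The deposited table holds log2 values for 54675 probe sets, read as log2 from the values themselves. The submitters' processing notes name MAS5 and RMA, and which of them made the values, in which version, is not given in the sources used here. Array medians were near equal, so a shift common to most transcripts could go unseen. Precision is limited by the number of arrays.

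Gene names came from the platform annotation, in which 41097 probe sets have 1 symbol, 1801 have more than 1 and 11777 have no entry. A gene was represented by its single-symbol probe set of highest mean over the 8 arrays, and tested if at least 2 of 8 arrays exceeded that array's median. Where every array of a group was below its median, the group counts as not shown to exceed background, and a difference against it is given as a bound. limma version 3.58.1 in R version 4.3.3 was fitted to all 8 arrays with 1 mean per group and 4 residual degrees of freedom, with Benjamini-Hochberg adjustment over all 13161 genes, or over all 24848 probe sets tested. Genes were called at an adjusted p under 0.05. The procedure was tested on simulated data. Python version 3.11.15 prepared the tables.

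The members, the further list, the motifs and the rule for naming genes were chosen with earlier results of these data known. Called members are named, with values per array for the 10 of largest size per comparison, and from the further list up to 4 called genes per comparison. Values per array of other members are given where another comparison named them. Outside this rule, they are also given for SREBF2 in NALM-6. In SUP-B8, where no member was called, they are also given for LSS, INSIG1 and ABCA1. Same-numbered replicates were compared across groups: their deviations correlated at -0.016, 0.004, 0.022 and 0.094, so the numbers were not taken to pair the arrays. Alternatives covered the filter, the probe set chosen, normalization, centring, the variance prior, the arrays fitted, a replicate block, a fold threshold of 0.2 on the log2 scale and the omission of each array. Promoter sequences are RefSeq's on GRCh38.p14, with no window used for ACAT2, ABCG1, FASN and SQLE among the tested members.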

Additional observations from a re-analysis of the deposited data

Results flagged for a closer look

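For 10 members the response to GSK126 differed between the lines by the test of the difference itself (SUP-B8 minus NALM-6, limma, adjusted p under 0.05), where 25.4% of all genes did. The differences of responses were 0.47 for HMGCS1, 0.25 for MSMO1, 0.60 for SC5D, 1.10 for ABCA1 and 1.10 for MYLIP. They were -0.37 for TM7SF2, -0.34 for SREBF1, -0.73 for INSIG2, -0.46 for STARD4 and -0.72 for ABCG1. ABCA1 and MYLIP had values of opposite sign in the lines, as did TM7SF2, SREBF1 and ABCG1, whereas HMGCS1, MSMO1, INSIG2 and STARD4 had the same sign in both. SC5D stood at 0.04 in SUP-B8 with the probe set that represents it and at -0.08 with the mean of its probe sets, against -0.56 and -0.34 in NALM-6. None of these genes was called in the arrays labelled SUP-B8.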

How the results depend on the processing

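No member changed direction among its calls under any of the alternatives. A required fold above 0.2 on the log2 scale left 8 of 16 member calls in NALM-6, 6 of 10 for the difference of responses, and, over probe sets, 12 of 30 and 9 of 17. Over all genes the share called also fell, from 39.3% to 15.2% and from 25.4% to 9.53%. Over all probe sets it fell from 41.1% to 17.1% and from 26.4% to 10.5%. A trended robust variance prior called 2 genes and 4 probe sets in SUP-B8, where the count was 0, against 5.9% of all genes and 4.79% of all probe sets. Leaving out an array leaves its group without a replicate, so counts from those fits are not given. Without a NALM-6 array, fewer genes and probe sets were called in NALM-6, among the members and over all features. The same held for the difference of responses when any array was left out. In SUP-B8 no member was called under any omission, and between lines under DMSO no member gene lost its call. A replicate block gave 16 genes in NALM-6, 0 in SUP-B8, 9 for the difference of responses and 21 between lines under DMSO. Over probe sets it gave 30, 0, 16 and 47 in the same order, and the gene call lost was that of MSMO1. With this block the shares called were 37.8%, 1.53%, 23.2% and 67.2% of all genes. Of all probe sets they were 39.4%, 1.23%, 24.5% and 69.3%. HMGCS1, MSMO1, SC5D, INSIG2, STARD4, ABCA1, ABCG1 and MYLIP kept their NALM-6 call in all 17 alternatives run. The SREBF1 call there was also lost without the filter (adjusted p = 0.0603), with centring (0.0759) and with only the 4 arrays compared (0.0525). That last setting could not be run for the difference of responses. Centring each array moved the share of all NALM-6 calls that were higher to 46.2%, against 52.9%, and that of the difference of responses to 53.1%, against 43.1%. The alternatives for the further list were added after seeing the data. There the mean over probe sets turned the sign for SOAT1 in NALM-6 (-0.083, against 0.37) and for its difference of responses (0.08, against -0.39), for LIPA between lines (0.006, against -0.16) and for GRAMD1A in NALM-6, which was not called in the main setting (0.16). The causes were not tested.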
